A study of Homo sapiens with 8 samples.

Results

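SRGN, LCP1, TMEM200A, ANO4 and IGF2BP1 are 5 of the 14884 genes tested, listed because they separate arrays of cells with an EZH2 hairpin from arrays with other hairpins. They were chosen by the log2 expression values of the shEZH2 arrays against the other arrays, so those values and the differences that involve shEZH2 or shRING1B are given as a description. All 5 were found, each through 1 probe set. Serglycin (SRGN) is a proteoglycan core protein that packs granule contents in blood cells, and L-plastin (LCP1) bundles actin filaments, mostly in leukocytes. Both are also made by some carcinoma cells. TMEM200A encodes a transmembrane protein with little known function, ANO4 a member of the anoctamin family of ion channels and lipid scramblases, and IGF2BP1 a fetal RNA-binding protein that stabilises its target messenger RNAs.

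The data are 8 expression arrays of total RNA from SCC13, an established human cutaneous squamous cell carcinoma line, with 2 arrays for each of 4 short hairpins. The shGFP hairpin targets a jellyfish protein and is the control. The other hairpins target RING1B, BMI1 and EZH2. The labels give no drug, time point or hairpin sequence, and name a single hairpin per target. Nothing in them ties the 2 replicates to independent cultures, so p-values reflect array-to-array spread that could be technical alone. In bulk RNA, fewer cells that make a transcript and less of it per cell cannot be told apart.

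Polycomb proteins keep genes silent by marking histones, mostly at gene starts rich in the dinucleotide CG. RING1B, with BMI1 as its partner, attaches ubiquitin to histone H2A within Polycomb repressive complex 1. EZH2 methylates histone H3 within Polycomb repressive complex 2, and both complexes are often found at the same genes.

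The 2 shEZH2 arrays carry another title prefix (SCCL3) than the other 6 (SCC13), while the cell line field is the same for all. An effect of the EZH2 hairpin and a difference in cells or handling that follows this prefix cannot be told apart, and this holds for every shEZH2 value given here. EZH2 mRNA was 8.95 and 9.03 with shEZH2 and between 9.62 and 9.97 on the other 6 arrays (log2 expression). It was lower than with shGFP by limma (log2 difference -0.91 ± 0.12 SE, adjusted p = 0.0183, n = 2 per group). The difference stayed between -0.98 and -0.84 with any 1 array left out, but the adjusted p rose to 0.0864 and 0.119 without shGFP replicate 1 or 2, and to 0.179 and 0.152 without shEZH2 replicate 1 or 2. BMI1 and RNF2, the gene for RING1B, were not analysed here, so those knockdowns were not checked. Of 16 keratinocyte markers, 8 were measured. The basal keratin KRT5 was between 10.10 and 10.60 on the 8 arrays and SFN, an epithelial adaptor protein, between 11.37 and 11.57, where the array medians were 5.49 to 5.52. These were the 2 brightest of the 8 markers, whose means over all arrays ran from 7.13 to 11.49. The desmosomal cadherin DSG3 ranged from 9.22 to 10.37 and the basal keratin KRT14 from 9.04 to 9.72.

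The RefSeq promoter table (GRCh38.p14) held windows for 3 of the 5 genes. The 250 bases before each listed start are shown because Polycomb complexes act at CG-rich starts and all 3 genes were lowest with shEZH2. Each is written 5′ to 3′ on the gene's strand with every CG in capitals.
LCP1 (chr13:46182178-46182427, minus strand): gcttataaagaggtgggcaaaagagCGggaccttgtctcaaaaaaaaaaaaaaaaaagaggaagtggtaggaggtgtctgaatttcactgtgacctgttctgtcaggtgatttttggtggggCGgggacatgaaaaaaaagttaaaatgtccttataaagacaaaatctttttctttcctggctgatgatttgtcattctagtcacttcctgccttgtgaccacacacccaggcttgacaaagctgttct
TMEM200A (chr6:130365767-130366016, plus strand): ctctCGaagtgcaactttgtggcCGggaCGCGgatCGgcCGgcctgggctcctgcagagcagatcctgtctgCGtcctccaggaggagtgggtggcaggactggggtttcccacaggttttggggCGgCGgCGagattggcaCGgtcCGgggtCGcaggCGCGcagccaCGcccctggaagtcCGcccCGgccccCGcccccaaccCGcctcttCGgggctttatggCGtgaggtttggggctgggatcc
ANO4, first start (chr12:100794526-100794775, plus strand): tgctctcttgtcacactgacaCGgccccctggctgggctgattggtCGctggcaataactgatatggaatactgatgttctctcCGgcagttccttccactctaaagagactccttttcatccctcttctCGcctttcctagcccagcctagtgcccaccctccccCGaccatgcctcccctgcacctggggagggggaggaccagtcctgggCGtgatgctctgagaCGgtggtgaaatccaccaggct
ANO4, second start (chr12:100901396-100901645, plus strand): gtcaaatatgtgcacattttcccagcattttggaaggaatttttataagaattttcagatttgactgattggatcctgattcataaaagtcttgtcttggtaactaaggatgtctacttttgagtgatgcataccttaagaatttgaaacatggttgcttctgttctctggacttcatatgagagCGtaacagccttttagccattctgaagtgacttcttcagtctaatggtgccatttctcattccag
The motif searched was CG, which reads the same on both strands. TMEM200A had 22 CG and a GC content of 69.6%, and 28.0% of the 35116 windows in the table held as many. LCP1 had 2 CG and a GC content of 41.2%, a count that 85.3% of windows reached. The first listed start of ANO4 had 7 CG (58.9% of windows) and the second had 1 (93.9%). The windows shown were therefore not all CG-rich, where the median CG count over all windows was 11. Those of ANO4 and TMEM200A lie inside the gene spans, which begin at 100717261 and 130365531. The outer end of these genes was thus not examined, and whether the genes share a CG-rich start there was not tested. The array does not say which ANO4 start was in use.

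SRGN lies on chromosome 10 (GRCh38.p14, 69087603 to 69104811). Its log2 level was 10.10 and 9.53 on the 2 shGFP arrays, 10.58 and 10.64 with shRING1B, 10.39 and 10.14 with shBMI1, and 8.91 and 9.08 with shEZH2. The order of the hairpins was shRING1B, shBMI1, shGFP, shEZH2, with no overlap between neighbours. Both shRING1B arrays were above the other 6, which held for SRGN and LCP1 of the 5 genes and for 5.03% of all genes. The shGFP arrays lay 0.56 apart, the widest spread of any hairpin for this gene.
The shEZH2 mean was 1.62 ± 0.18 (SE) log2 units below the shRING1B mean, a 3.07-fold lower level. Against shGFP, SRGN was 0.79 ± 0.18 higher with shRING1B and 0.82 ± 0.18 (SE) lower with shEZH2, on the log2 scale (-0.82). Both depend on which control array is kept. Without shGFP replicate 2 the shRING1B difference was 0.51 and the shEZH2 difference -1.11, and without replicate 1 they were 1.07 and -0.54.

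LCP1 lies on chromosome 13 (46125923 to 46182177). Its log2 level was 6.96 and 7.14 with shGFP, 7.66 and 7.89 with shRING1B, 6.9964 and 7.17 with shBMI1, and 6.54 and 6.56 with shEZH2. Here shRING1B stood above all other hairpins and shEZH2 below them, while the shBMI1 and shGFP arrays overlapped. The shEZH2 mean was 2.34-fold lower than that of shRING1B (log2 -1.23 ± 0.115 SE). Set against shGFP, the difference was 0.72 ± 0.115 with shRING1B and -0.51 ± 0.115 with shEZH2.

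TMEM200A lies on chromosome 6 (130365531 to 130443067). Its log2 level was 6.96 and 6.74 with shGFP, 7.51 and 7.55 with shRING1B, 7.52 and 6.93 with shBMI1, and 6.19 and 6.33 with shEZH2. The shBMI1 arrays lay 0.59 apart and overlapped both the shRING1B and the shGFP arrays, so shBMI1 has no settled place in the order. The shEZH2 arrays were lowest. The shEZH2 mean was 2.41-fold below that of shRING1B (log2 -1.27 ± 0.18 SE), and the differences from shGFP were 0.68 ± 0.18 with shRING1B and -0.59 ± 0.18 with shEZH2.

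ANO4 lies on chromosome 12 (100717261 to 101128641). Its log2 level was 6.87 and 6.89 with shGFP, 6.90 and 7.0022 with shRING1B, 7.40 and 7.35 with shBMI1, and 5.92 and 5.98 with shEZH2. Arrays of a hairpin lay at most 0.10 apart. ANO4 was thus low with shEZH2 and high with shBMI1, with shRING1B close to the control. The shEZH2 difference was -0.93 ± 0.08 (SE) from shGFP and -1.0025 ± 0.08 from shRING1B, whereas the shRING1B difference from shGFP was 0.07 ± 0.08, less than its error.

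IGF2BP1 lies on chromosome 17 (48996558 to 49056145). Its log2 level was 9.18 on both shGFP arrays, 9.12 and 8.97 with shRING1B, 9.72 and 9.73 with shBMI1, and 8.79 and 8.94 with shEZH2. The hairpin that stood apart was shBMI1. The shEZH2 arrays were lowest by a margin of 0.03 to the nearest shRING1B array. Both shRING1B (-0.14 ± 0.09 SE) and shEZH2 (-0.31 ± 0.09) lay below shGFP, so IGF2BP1 was not opposed between them, and their own difference was -0.18 ± 0.09.

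**Figure D1:**
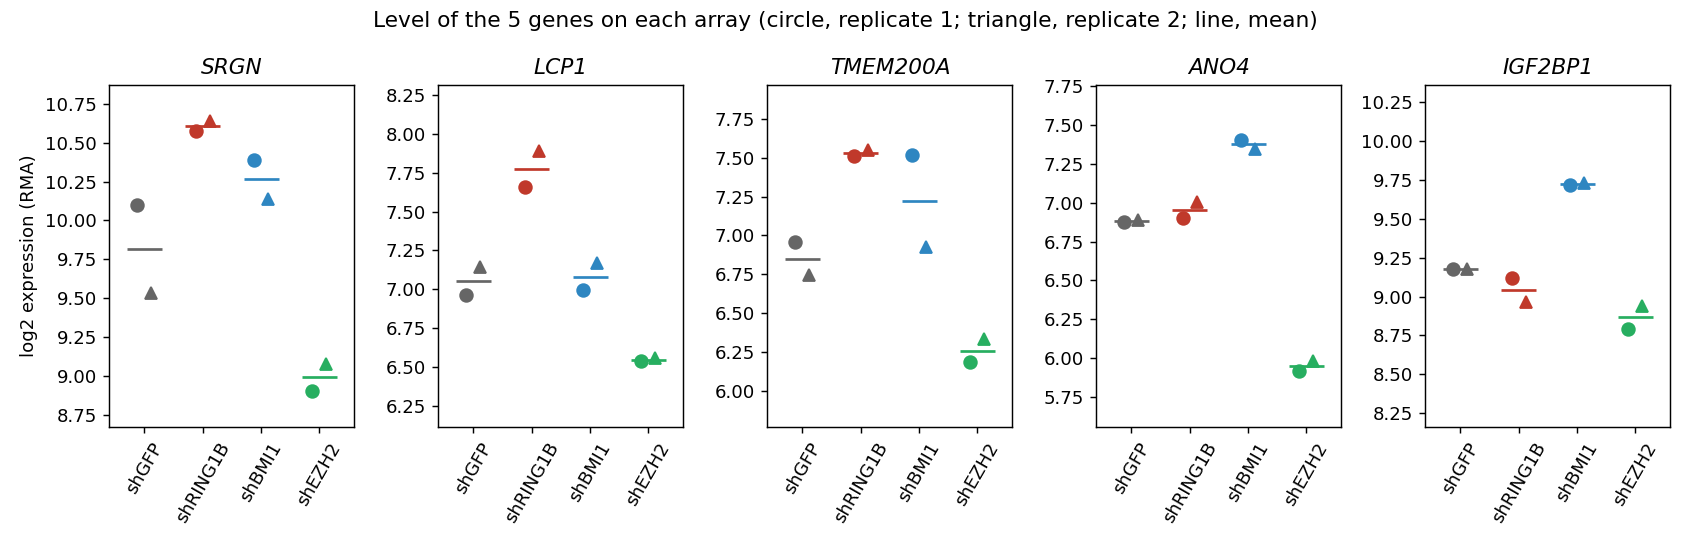
Log2 expression (RMA) of each gene on each of the 8 arrays, by hairpin; circles are replicate 1, triangles replicate 2 and lines the mean of 2 arrays, and all panels span the same height. SRGN, LCP1 and TMEM200A are highest with shRING1B by mean, ANO4 and IGF2BP1 with shBMI1, and every gene is lowest with shEZH2.

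Calling the genes opposed between RING1B and EZH2 knockdown therefore fits 3 of them by size. SRGN, LCP1 and TMEM200A were above shGFP with shRING1B and below it with shEZH2 by at least 0.5 log2 units each, without overlap of arrays. Over all genes 6 met that description (0.0403%), and the other 3 were CRCT1, KRTAP2-3 and MT1L, named after their values were seen. KRTAP2-3 and MT1L have near-identical copies and are uncertain. Without the size condition 409 genes had shRING1B arrays above and shEZH2 arrays below both shGFP arrays (2.75%), 4 of the listed genes among them, and 381 showed the reverse (2.56%). IGF2BP1 was the exception. Because these values chose the genes, the counts are a description, and the comparisons with shGFP share the same 2 control arrays.

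**Figure D2:**
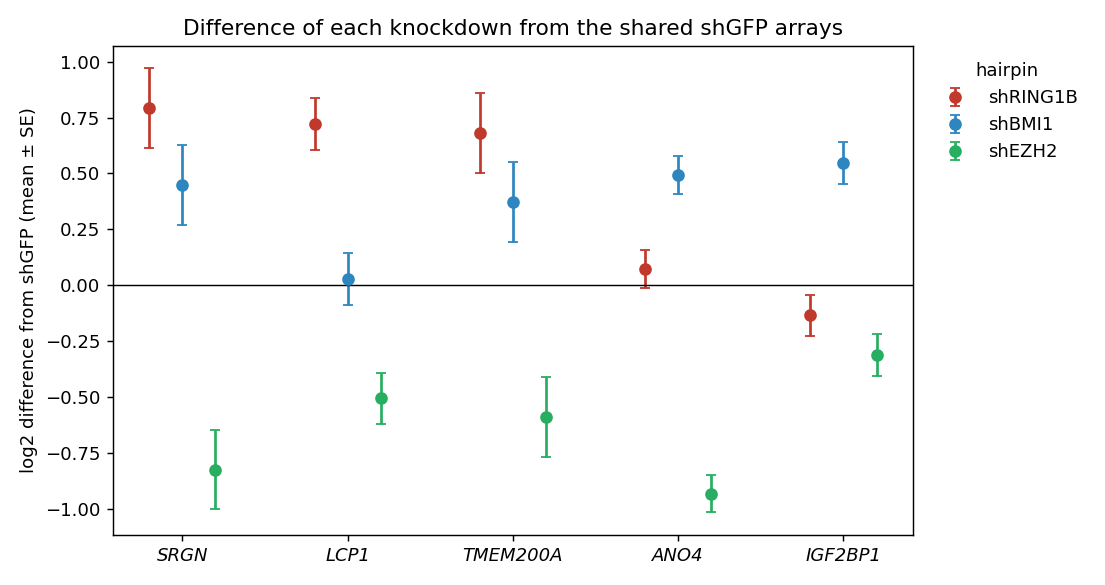
Log2 difference of each knockdown from shGFP for each gene, as the mean of 2 arrays against 2 with the standard error of the limma fit; all 3 differences of a gene share the shGFP arrays. SRGN, LCP1 and TMEM200A show shRING1B above and shEZH2 below 0, ANO4 and IGF2BP1 show shBMI1 above 0.

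In all 5 genes both shEZH2 arrays lay below the other 6. Of all genes, 1777 did so (11.9%), and 1375 had both shEZH2 arrays above the other 6 (9.24%), so the separation alone is common. With a size condition it was rarer. In 65 genes (0.437%) the shEZH2 arrays were lower by a mean of at least 0.5, and all but IGF2BP1 were among them. The shEZH2 mean was below the mean of the other 6 arrays by 1.24 for SRGN, 1.12 for ANO4, 0.94 for TMEM200A, 0.76 for LCP1 and 0.45 for IGF2BP1.

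The 6 arrays with the SCC13 prefix also differed among themselves, and no prefix difference enters there. Their range was 1.11 for SRGN, 0.93 for LCP1, 0.81 for TMEM200A, 0.76 for IGF2BP1 and 0.53 for ANO4 (log2 units). The gap from the highest shEZH2 array to the lowest of these 6 was 0.46, 0.41, 0.41, 0.03 and 0.89 in the same order. ANO4 was the one gene of the 5 whose gap was wider than the range of the other arrays, as it was for 234 of all genes (1.57%). For SRGN, LCP1 and TMEM200A, part of the shEZH2 to shRING1B difference lay between shGFP and shRING1B, within the SCC13 prefix, and part between shGFP and shEZH2. The differences from shGFP with shRING1B and shEZH2 were 0.79 and -0.82 for SRGN, 0.72 and -0.51 for LCP1, and 0.68 and -0.59 for TMEM200A. This split rests on the 2 shared shGFP arrays. For SRGN it was 0.51 and -1.11 without shGFP replicate 2, and 1.07 and -0.54 without replicate 1. For ANO4 nearly all of the shEZH2 to shRING1B difference lay on the shEZH2 side.

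Among all genes ranked by shEZH2 minus shRING1B, SRGN was 3rd from the lowest, TMEM200A 7th, LCP1 9th, ANO4 16th and IGF2BP1 2593rd. Ranked by shEZH2 minus shBMI1, ANO4 was 3rd from the lowest, SRGN 4th, TMEM200A 7th, IGF2BP1 9th and LCP1 102nd. IGF2BP1 thus stood apart only where shBMI1 was the other side.

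Between shBMI1 and shGFP none of the 5 passed. The difference uses only those 4 arrays, while its error is estimated over all 8. By limma with Benjamini-Hochberg adjustment 0 of 14884 genes passed (0%), and 830 (5.58%) had an unadjusted p under 0.05, where 3 of the 5 did. IGF2BP1 was 1.46-fold higher with shBMI1 (log2 0.55 ± 0.09 SE, adjusted p = 0.316). ANO4 was 1.41-fold higher (0.49 ± 0.08, adjusted p = 0.316). Fitted on the 4 arrays alone, the adjusted p was 0.824 for IGF2BP1 and 0.844 for ANO4, and with the shEZH2 arrays left out it was 0.582 and 0.637. For both, each shBMI1 array was above all 6 other arrays, as in 2.9% of genes. SRGN was at 0.45 ± 0.18 (adjusted p = 0.884), TMEM200A at 0.37 ± 0.18 (adjusted p = 0.903) and LCP1 at 0.03 ± 0.115 (adjusted p = 0.999). The shBMI1 arrays were among those the choice set against shEZH2, so this test is not wholly independent of the choice. SRGN moved to 0.73 without shGFP replicate 1 and 0.17 without replicate 2, TMEM200A to 0.08 without shBMI1 replicate 1 and 0.67 without replicate 2. LCP1 lay between -0.062 and 0.1166 with 1 array left out, so its sign is not settled.

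**Figure D3:**
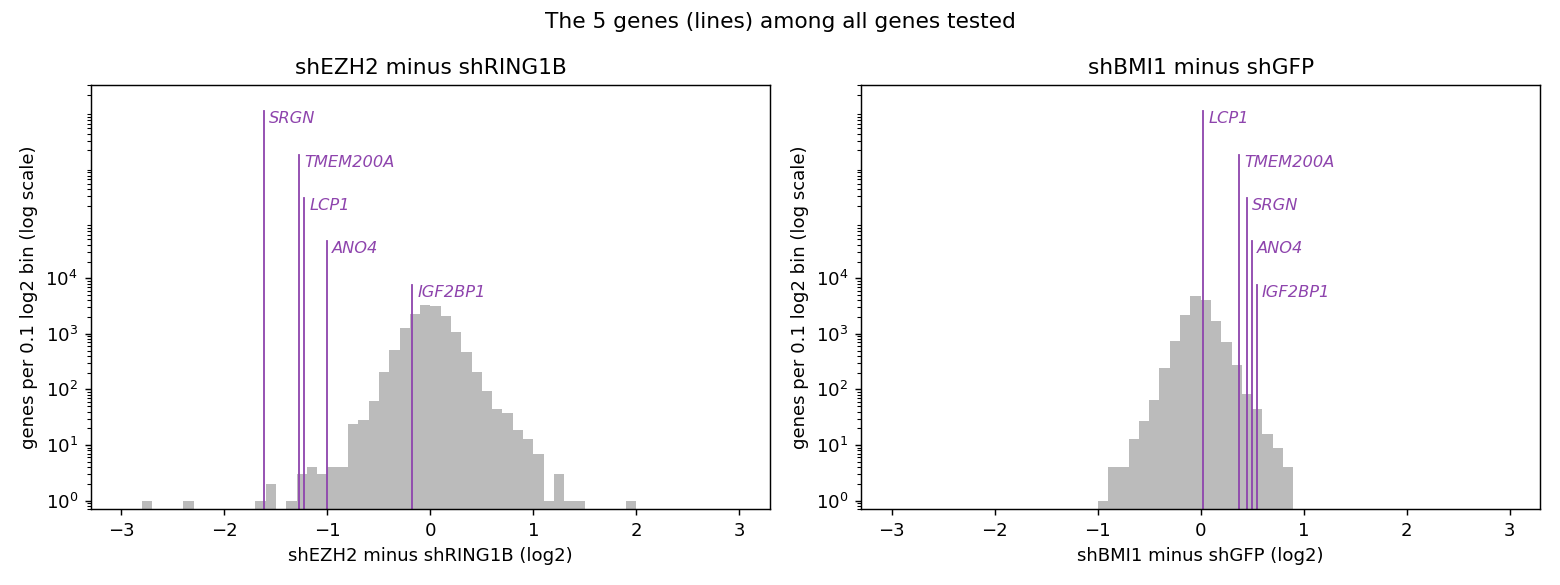
Number of genes per 0.1 log2 bin (log scale) of the difference shEZH2 minus shRING1B (left) and shBMI1 minus shGFP (right), over all genes tested, with the 5 genes as lines. On the left 4 genes lie in the low tail and IGF2BP1 near the centre; on the right LCP1 lies near 0 and the other 4 between 0.37 and 0.55.

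Paralogues of the listed genes, fixed by family, did not pass in any of the 4 comparisons with adjusted p under 0.05 in the fit as designed. Of the plastins, PLS1 (intestinal I-plastin) was at 0.17 ± 0.12 with shRING1B and -0.28 ± 0.12 (SE) with shEZH2 against shGFP, and at -0.45 ± 0.12 between shEZH2 and shRING1B (adjusted p = 0.134 by limma; 0.044 with a trended robust variance). PLS3, the plastin of most solid tissues, was at -0.07 ± 0.10 and -0.06 ± 0.10 against shGFP. TMEM200B and TMEM200C differed by at most 0.12 in any comparison. Of 9 other anoctamins 6 were measured. ANO6, the widely expressed scramblase, lay between 10.82 and 10.97 on all arrays. ANO5 and ANO3 were at 0.43 ± 0.15 and 0.33 ± 0.12 between shEZH2 and shRING1B, a direction opposite to that of ANO4 (adjusted p = 0.232 and 0.239). Both were dim, below the array medians on every array (ANO5 from 4.74 to 5.45, ANO3 from 4.24 to 4.71). IGF2BP3 was at -0.36 ± 0.08 with shRING1B against shGFP and 0.42 ± 0.08 between shEZH2 and shRING1B (adjusted p = 0.338 and 0.0824). The second passed without the dimmest 30% of genes (0.0308) and with a trended robust variance (0.0145). IGF2BP2 was at -0.09 ± 0.10 and -0.10 ± 0.10 in the same comparisons.

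**Figure D4:**
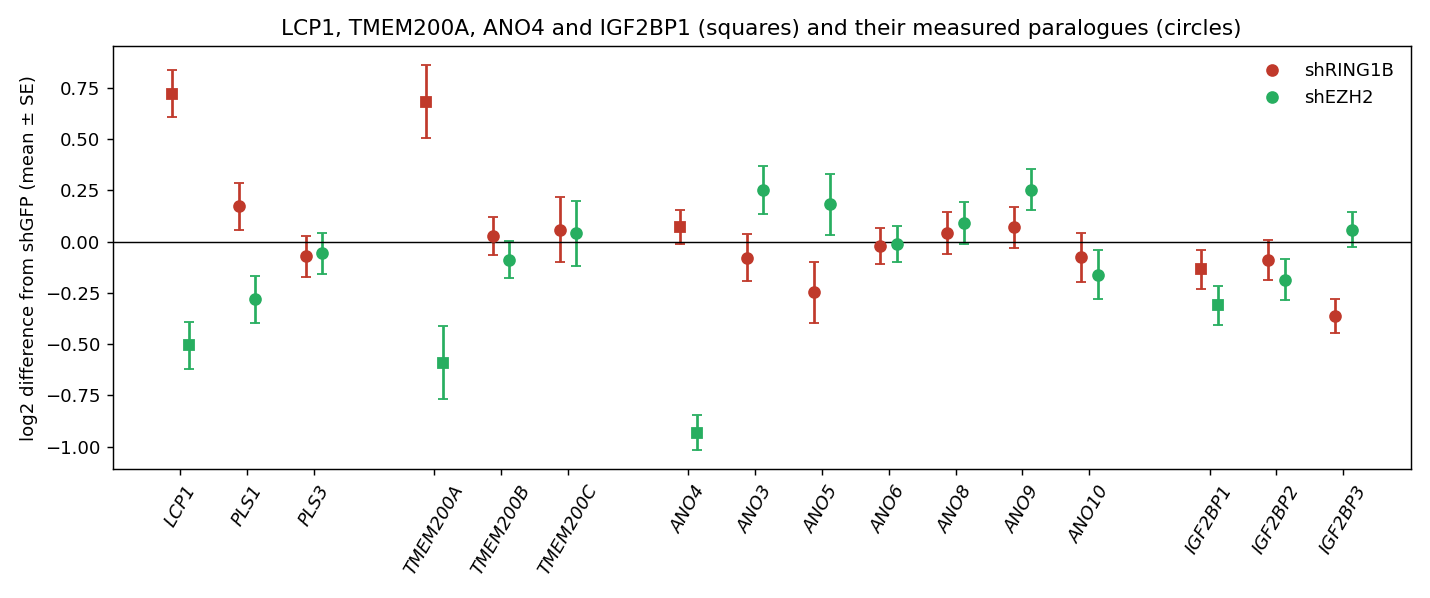
Log2 difference from shGFP (mean of 2 arrays, standard error of the fit) with shRING1B and shEZH2 for LCP1, TMEM200A, ANO4 and IGF2BP1 (squares) and their measured paralogues (circles). PLS1 shows the signs of LCP1 at smaller size, while ANO3, ANO5 and IGF2BP3 have shEZH2 above shRING1B. ANO3 and ANO5 lie below the array medians on every array.

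In lists of related genes, few members passed, and in the fit as designed those that did were higher with shEZH2. XYLT1, which starts chondroitin sulfate chains, was lower with shEZH2 than with shGFP (-0.55) and passed without the dimmest genes (adjusted p = 0.0299) and with a trended robust variance (0.00626). CSGALNACT1, of the same list, was higher (0.67) and passed with the same settings (0.0407 and 0.0264). Against shRING1B the trended robust variance added XYLT1 (-0.375, 0.0473) and CHST12 (-0.40, 0.0252) as lower. It added CSGALNACT1 (0.62, 0.0401) as higher. The share of all genes past the threshold was 0.732% for shEZH2 against shGFP, 0.578% for shEZH2 against shRING1B (0.558% and 0.356% higher, 0.175% and 0.222% lower, in that order; the split depended on the fit, with 54.3% of calls against shGFP higher without the dimmest 30% of genes and 43.4% with a trended robust variance, where it was 76.1%) and 0% for shRING1B against shGFP, where limma called 0 genes and 1280 (8.6%) had an unadjusted p under 0.05. Of 20 genes for proteoglycan cores and chondroitin sulfate synthesis, the class serglycin belongs to, 2 rose and 0 fell with shEZH2 against shGFP. Decorin (DCN), a small matrix proteoglycan, rose 1.91-fold (log2 0.93 ± 0.10 SE, adjusted p = 0.0109) and CSPG4, a membrane proteoglycan, rose 1.52-fold (adjusted p = 0.046). The median of that list was 0.11 against -0.01 over all genes. DCN also rose against shRING1B (0.80 ± 0.10, adjusted p = 0.0186). Of 8 measured actin-bundling and plastin genes, EPS8, which caps and bundles actin, rose with shEZH2 against shGFP (0.60 ± 0.09, adjusted p = 0.0352), and the list median was 0.08.
Leaving out any 1 array of shGFP or shEZH2 ended each of these calls against shGFP, and leaving out any 1 array of shRING1B or shEZH2 ended that of DCN against shRING1B. The EPS8 call was also lost without any 1 array of shBMI1 or shRING1B (adjusted p = 0.0525 and 0.0586), that of CSPG4 without any 1 array of shBMI1 (0.0705) and after median centring (0.0512). With only the 4 arrays compared, only DCN against shGFP passed (0.0497).

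The lists that follow had 0 members past the threshold in any of the 4 comparisons in the fit as designed. Among 7 measured granule proteins that serglycin can bind, the neutrophil chemokine CXCL8 was at 0.95 ± 0.23 with shRING1B against shGFP (adjusted p = 0.346) and at 0.90 ± 0.23 with shEZH2 (adjusted p = 0.12), so it lay above the control with both hairpins. Leaving out either shRING1B array brought the second below the threshold (0.0257), as did a trended robust variance (0.0442). TPSAB1, a mast cell tryptase, was at 0.49 ± 0.14 with shBMI1 (adjusted p = 0.707). Among 14 measured IGF2BP and oncofetal genes, HMGA2, a fetal chromatin protein, was at -0.44 ± 0.10 with shRING1B (adjusted p = 0.318). Among 6 measured transcripts known to be bound by IGF2BP1, SRF was at -0.33 ± 0.11 between shEZH2 and shRING1B and MAPK4 at 0.31 ± 0.13 with shRING1B against shGFP (adjusted p = 0.22 and 0.574). With a trended robust variance SRF passed (0.0461).

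SRGN and LCP1 are leukocyte genes, so leukocyte markers were set beside them. Of 25 markers 14 were measured. In the 4 comparisons 0% to 0.732% of all genes passed, and 0 of the 14 markers did. Their mean over all arrays ran from 4.11 for CD48 to 10.93 for CD68, a lysosomal protein that many cell types make. The pan-leukocyte gene PTPRC was not analysed here. Their mean log2 level was 5.99 and 6.10 on the shGFP arrays, 6.12 to 6.20 with shRING1B, 6.07 to 6.09 with shBMI1 and 6.20 to 6.24 with shEZH2. The lower shEZH2 array (6.1976) lay just above the higher shRING1B array (6.1955), so both shEZH2 arrays were above the other 6 by a small margin. Of the 14 markers 1 had both shEZH2 arrays above the other 6, as did 9.24% of all genes. Against shGFP, 13 of the 14 markers were higher with shEZH2 (median 0.18, against -0.01 over all genes). With shRING1B 11 were higher (median 0.08) and with shBMI1 9 (median 0.03). On a linear scale the summed level of the 14 markers was 2709 to 2769 with shGFP, 2597 to 2937 with shRING1B, 2704 to 2806 with shBMI1 and 3007 to 3092 with shEZH2. CD68 alone made up 66.5% to 71.0% of that sum on each array. Without CD68 the sum was 784.8 to 849.2 with shGFP, 871 to 904.9 with shRING1B, 825.1 to 841.5 with shBMI1 and 914.6 to 959.6 with shEZH2. CD53, a leukocyte tetraspanin, was at 0.47 ± 0.19 with shRING1B and 0.37 ± 0.19 with shEZH2 against shGFP, and CD37 at 0.31 ± 0.11 with shBMI1.

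Among markers of other cells, single genes passed with shEZH2. Of 4 measured fibroblast markers DCN passed (LUM, at 0.89 against shGFP, passed with a replicate block, adjusted p = 0.0164, and with a trended robust variance, 0.0361). LUM lay between 3.94 and 5.33 on the 8 arrays, below the array medians. THY1 was at -0.15 and FBLN1 at 0.07 with shEZH2 against shGFP. Of the 4 markers 3 were higher and 1 lower in that comparison (median 0.48, against -0.01 over all genes). Against shRING1B 4 were higher (median 0.31). Both shEZH2 arrays were above the other 6 for 2 of the 4 (DCN and FBLN1), as for 9.24% of all genes. The summed linear level of the 4 was 472 to 478 with shEZH2 and 323 to 401 on the other arrays. DCN was the brightest of the 4 by mean (7.39) and weighs most in that sum. Of 6 measured melanocyte markers MLANA was higher with shEZH2 than with shGFP (0.64 ± 0.11, adjusted p = 0.046), at 4.80 and 4.85 against 4.18 and 4.19, all below the array medians; this list's summed level was 292 to 312 with shEZH2 and 270 to 307 on the other arrays. Of 5 endothelial markers 0 passed, with KDR at -0.72 ± 0.26 between shEZH2 and shRING1B and VWF at 0.29 ± 0.09 with shBMI1, and summed levels of 329 to 350 with shEZH2 against 334 to 424 elsewhere. Among keratinocyte markers the desmosomal cadherin DSG3 was 2.01-fold higher with shEZH2 than with shRING1B (adjusted p = 0.0187). Against shGFP, DSG3 was at -0.58 with shRING1B, -0.48 with shBMI1 and 0.43 with shEZH2. With a trended robust variance its shRING1B and shEZH2 differences from shGFP passed (adjusted p = 0.0417 and 0.0365). KRT14, a basal keratin, was at -0.57 with shEZH2 against shGFP, past the threshold without the dimmest genes (0.0433) and with a trended robust variance (0.0109). It was at -0.50 with shRING1B and -0.29 with shBMI1. The keratinocyte summed level was 6907 to 7139 with shGFP, 5863 to 6010 with shRING1B, 6123 to 6646 with shBMI1 and 6354 to 6699 with shEZH2. Of the 8 measured markers, 8 were lower than with shGFP with shRING1B, 7 with shBMI1 and 6 with shEZH2. The part of these markers in the values of the 5 genes was not tested. The MLANA call was lost without any 1 array of shGFP, shRING1B or shEZH2 and with a replicate block (adjusted p = 0.0638), and that of DSG3 without any 1 array of shRING1B or shEZH2 and with only the 4 arrays compared (0.0512). MLANA missed the threshold there too (0.0597), after quantile normalization (0.0515) and after median centring (0.0512).

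Genes next to the listed ones were examined for like differences. Of the nearest measured protein-coding genes, 2 on each side of each gene, 0 of 20 passed in any of the 4 comparisons, where 0% to 0.732% of all genes did. The neighbours of SRGN, DDX21, KIFBP, VPS26A and HKDC1, lay between -0.10 and 0.08 for shEZH2 minus shRING1B. The largest of the 20 was EPB41L2, a membrane skeleton protein gene beside TMEM200A, at -0.38 ± 0.10 (SE; adjusted p = 0.133 by limma), where TMEM200A was at -1.27. ARL1, beside ANO4, was at 0.28 ± 0.11. Of the 20 neighbours, 3 (ZC3H13, L3MBTL3 and EPB41L2) had both shEZH2 arrays below the other 6 (15%, against 11.9% of all genes).

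**Figure D5:**
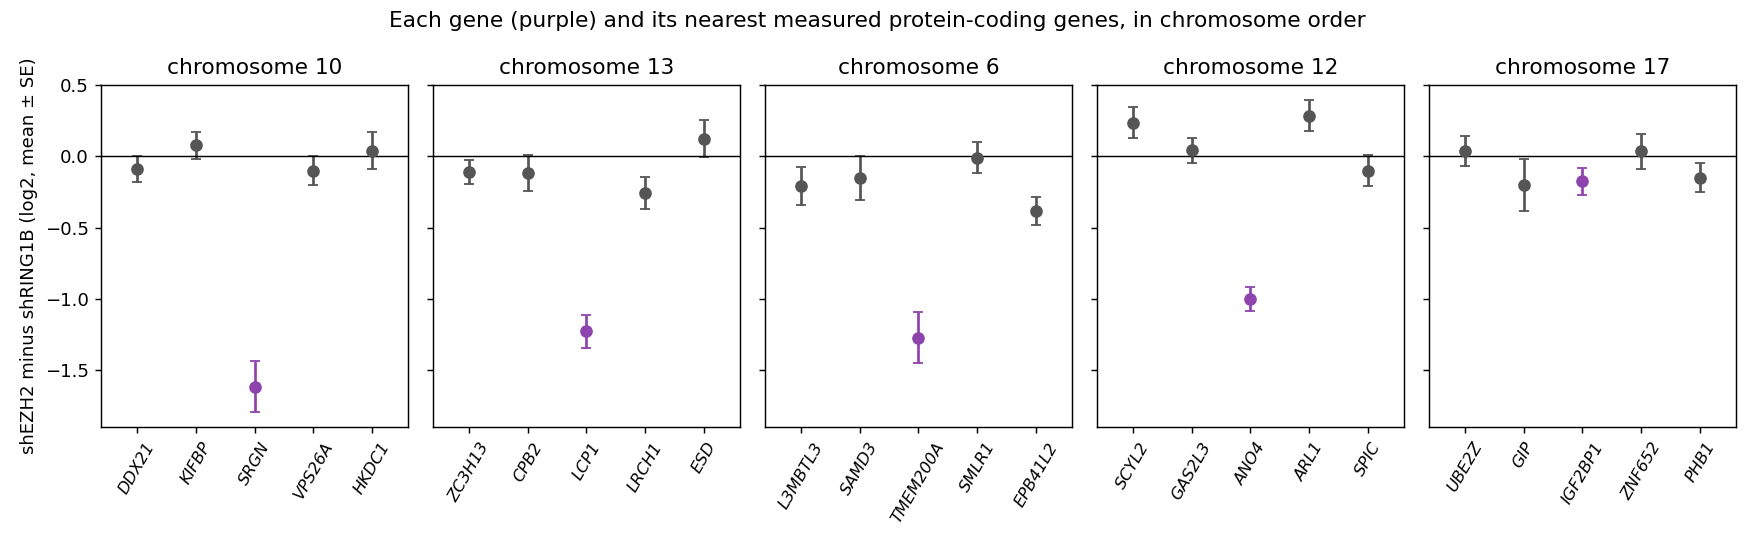
Difference shEZH2 minus shRING1B (log2, mean of 2 arrays against 2, standard error of the fit) for each listed gene (purple) and its nearest measured protein-coding genes (grey), in chromosome order and not to distance. The neighbours lie between -0.38 and 0.28, and 4 of the 5 listed genes lie below -1.

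The genes most like each listed one were found by Pearson correlation of log2 levels over the 8 arrays, among 1694 protein-coding genes with an SD of at least 0.2. The arrays of a hairpin share their treatment, so these values describe a pattern over 4 hairpins. SRGN and TMEM200A were close to each other (0.97), and both to AXL, a receptor tyrosine kinase (0.98 and 0.97), and DRC11, a ciliary gene (0.97 for each). AXL was 10.43 and 10.35 with shGFP, 10.82 and 10.84 with shRING1B, 10.74 and 10.58 with shBMI1, and 10.01 and 9.93 with shEZH2. Its shEZH2 and shRING1B arrays thus lay on opposite sides of shGFP, as those of SRGN did, over a smaller range. AXL was picked by correlation over these same arrays, so a like order of hairpins follows from the choice. SRGN and TMEM200A were both listed for how they separate the shEZH2 arrays, so their closeness is a description too. LCP1 was closest to GPR3 (0.96), NEGR1 (0.96) and GCKR (0.95). NEGR1, a neuronal adhesion protein, was at 7.82 and 8.34 with shRING1B and 6.94 on both shEZH2 arrays.

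ANO4 was most like FRMPD4 (0.99), the DNA helicase gene RECQL4 (0.98) and ZGRF1 (0.96), another helicase. RECQL4 was 8.43 and 8.49 with shGFP, 8.41 and 8.44 with shRING1B, 8.64 and 8.60 with shBMI1, and 8.11 and 8.05 with shEZH2. IGF2BP1 was most like CFAP44 (0.96), the Wnt pathway transcription factor LEF1 (0.96) and the insulin-like growth factor receptor IGF1R (0.96). LEF1 was 6.91 and 6.93 with shBMI1, between 6.44 and 6.48 with shGFP and shRING1B, and 6.03 and 6.35 with shEZH2.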

How the data were processed

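The authors deposited 1 log2 value per probe set and array, produced by RMA (background correction, quantile normalization, probe summary). RMA and limma are the tools in the submitters' processing notes. Their versions and the genome build: not given in the sources used here. Such values compress differences of dim genes and hide a shift shared by most genes. Of 53617 probe sets, 16098 had 1 gene symbol in the annotation used. The other 37519 were without a gene symbol there and were left out. Whether any of them map to several genes was not examined. All 16098 matched a RefSeq gene (GRCh38.p14). For genes with several probe sets (779) the one with the highest mean was used. All 5 genes passed a filter on the dimmest 30%.

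Here limma 3.58.1 (R 4.3.3) was fitted with a mean per hairpin over 8 arrays (4 residual degrees of freedom), with empirical Bayes moderation, two-sided, adjusted by Benjamini-Hochberg over 14884 genes at 0.05, after a test on simulated data. The fits use 2 arrays per group, where an exact permutation test cannot go below p = 0.333. The number of arrays limits precision. The genes and lists were chosen with earlier results of these data known. Genes named are the 5, EZH2, paralogues, 2 neighbours a side, the 3 most alike, and of each list up to 4 past the threshold or else the 2 with the largest difference. XYLT1, CSGALNACT1, CHST12, LUM and KRT14 were named after their values were seen, for passing only in an alternative. KRT5, SFN, THY1, FBLN1, CD48 and CD68 were also named outside these rules, to describe their marker lists. Alternatives were a replicate block, a fit of the compared arrays alone or without shEZH2, median centring, quantile normalization, the dim filter, averaging a gene's probe sets, array weights, a robust variance trend, and each array left out in turn.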

Additional observations from a re-analysis of the deposited data

How the results depend on the processing

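Many recomputed differences of the 5 genes could not change. A replicate block, fits of fewer hairpins, the dim filter, the variance trend and averaging of probe sets leave a difference of hairpin means as it was. So does leaving out an array of another hairpin. The directions with shEZH2 and shRING1B were also part of the choice of genes. With these included, 328 of 330 recomputed differences kept their direction, and none between shBMI1 and shGFP crossed the threshold. The other 2 were of 1 result (LCP1, shBMI1 against shGFP), which turned to -0.0575 without shBMI1 replicate 2 and to -0.062 without shGFP replicate 1 (range -0.062 to 0.1166 with 1 array left out). Over its alternatives the adjusted p in that comparison lay between 0.0588 and 0.857 for IGF2BP1 and between 0.145 and 0.857 for ANO4. The 5 genes with shEZH2 arrays below the others became 4 after quantile normalization, where IGF2BP1 overlapped by 0.001 (gap -0.001).

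Of all genes, 109 passed for shEZH2 against shGFP and 86 for shEZH2 against shRING1B. With only the 4 arrays compared these counts were 39 and 21, without the dimmest 30% of genes 409 and 361, and with a trended robust variance 648 and 555. The higher and lower calls were 83 and 26 against shGFP, 222 and 187 without the dimmest genes, and 281 and 367 with the trended robust variance. Against shRING1B they were 53 and 33, 193 and 168, and 264 and 291. With array weights the first was 174. The shRING1B against shGFP count of 0 became 2 after quantile normalization, 11 without the dimmest genes and 36 with the trended robust variance. That of shBMI1 against shGFP stayed at 0 in every alternative. Leaving out 1 array gave 0 to 91 and 0 to 75 for the shEZH2 comparisons (without shGFP replicate 1 or 2, 19 and 6 against shGFP; without shRING1B replicate 1 or 2, 14 and 2 against shRING1B; without shEZH2 replicate 1 or 2, 0 and 0, then 0 and 1; without shGFP replicate 1 or 2, 52 and 52 against shRING1B), and 0 to 0 for both others. The 3152 genes with shEZH2 arrays outside the range of the others became 3488 to 5896, and the 5 listed genes 5 to 5. The highest value came without a shEZH2 array, where 1 array has to lie outside. Leaving out an array cannot undo such a separation, so neither count could fall. The 5 genes were also chosen by it, so their count says nothing about how stable the separation is.

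A replicate block gave counts of 108 (against shGFP) and 101 (against shRING1B) with shEZH2, and 0 for the others. Deviations of equally numbered arrays correlated above 0 in 6 of 6 pairs of hairpins and over 0.1 in 2 (shGFP with shBMI1 0.25, with shRING1B 0.12). Those of shEZH2 were near 0 with shRING1B (7e-04) and shGFP (0.02), and 0.09 with shBMI1. The labels do not say that numbers mark a batch. The small number of arrays limits all of these values.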
